A study of Mus musculus with 2 samples.

Results

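The data described here were the transcript counts of 8 complement genes, C1qa, C1qb, C1qc, C3, C3ar1, C5ar1, Cfb and Cfp, in single cells from mouse liver metastases. The genes were chosen by symbol, as a set of complement components and anaphylatoxin receptors, and all 8 were found once each among the 56941 features of the count matrices. The question was in which cell types these genes were detected and how their levels compared between metastases of control and SLAMF3 knockdown tumor cells.

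Both groups were C57BL/6 mice, 6 to 8 weeks old when MC38-LM3b colon cancer cells were injected into the spleen. Liver metastases grew for 2 weeks after this injection. In the Ctrl group the tumor cells carried the hairpin shScramble, and in the KD group they carried shSLAMF3#2, a hairpin against SLAMF3 (gene Ly9), a receptor of the SLAM family. The hairpin was in the injected tumor cells and not in the host, whose immune cells kept their own Ly9. CD45+ cells of 3 mice were pooled in each group and sequenced as 1 library with the 10x Genomics 3′ kit, so each group was a single library without replicates. No test between the groups was possible. All intervals given here are exact 95% intervals for counting error alone, and a difference beyond such an interval compares these 2 libraries and not the conditions.

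Complement is a cascade of blood and tissue proteins that marks targets for uptake and draws in leukocytes. C1q, built from the chains encoded by C1qa, C1qb and C1qc, recognizes antibody complexes and dying cells and starts the classical pathway. C3 is the component on which all pathways converge, factor B (Cfb) forms the alternative pathway convertase, and properdin (Cfp) stabilizes it. Cleavage of C3 and C5 releases the anaphylatoxins, small peptides that act on the receptors C3ar1 and C5ar1 of myeloid cells. Hepatocytes make most circulating complement, whereas C1q and properdin come largely from myeloid cells, and Kupffer cells are the resident macrophages of the liver.

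The libraries held 10416 Ctrl and 10943 KD cells, of which 9814 and 10185 passed the filters, with medians of 5411.5 and 4989 UMIs per cell. A UMI is a tag that counts each captured transcript once. Between the libraries 27 cell barcodes were shared, 24 of them among filtered cells. Clustering without the complement genes gave 18 clusters, which were named from marker genes as 10 classes, and 1 cluster of 161 Ctrl and 154 KD cells stayed unnamed, 99.7% of its cells being among those scored as likely doublets. The macrophage class, which included monocytes, had 4098 Ctrl and 2999 KD cells, and the granulocyte class had 805 and 2315. The T cell class had 3222 and 1618 cells, the conventional dendritic cell (cDC) class 377 and 573, and the Kupffer class, in which all 6 Kupffer markers were enriched, 50 and 82. The NK class, with 431 and 733 cells, was mixed, since its T cell markers (2463 and 2971 CPM) summed to more than its NK markers (1530 and 1054 CPM). Cells of the tumor or fibroblast class, which the CD45 selection should remove, numbered 161 and 96. In that class Ly9 had 12 Ctrl and 7 KD UMIs (5.91 and 5.36 CPM, the usual scaling of a gene's UMIs by all UMIs of the class), too few to check the knockdown.

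C1qa, C1qb and C1qc were highest in Kupffer cells, followed by macrophages, in both libraries. In Kupffer cells C1qa stood at 4554 CPM in Ctrl and 4471 in KD. C1qb stood there at 3839 and 3869 CPM and C1qc at 4235 and 3705 CPM. The first 2 chains differed between the libraries by less than the counting error, and C1qc was lower in KD by 0.19 on the log2 scale (interval -0.28 to -0.10). Without the likely doublets this C1qc log2 ratio was -0.06. These chains lie next to each other on chromosome 4 in the order C1qb, C1qc and C1qa, with no other gene listed between them in RefSeq.

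In macrophages C1qa had 60169 UMIs in Ctrl and 51791 in KD, or 2299.5 and 2196 CPM. C1qb had 2761 and 2496 CPM and C1qc 1958 and 1556 CPM. Over the class as a whole all 3 chains were lower in the KD library, and unequally so. The log2 ratios of KD over Ctrl were -0.07 (-0.08 to -0.05) for C1qa, -0.15 (-0.16 to -0.13) for C1qb and -0.33 (-0.35 to -0.31) for C1qc. C1qa was not lower beyond counting error in any cluster of the class. Its ratio was 0.32 in the cluster led by Cxcl9, 0.19 in that led by H2ac8 and -0.02 (-0.11 to 0.07) in that led by Cadm1. In the cluster led by Vcan, with 359 Ctrl and 1118 KD cells, it was 2.45. The sum of the 3 chains was 7018 CPM in Ctrl and 6248 in KD, a log2 ratio of -0.17 (-0.18 to -0.16). The size of this difference depended on which macrophages were counted, and its direction differed between the clusters of the class. The ratio was -0.09 when sub-clusters were given the same weight in both libraries and -0.04 when each cell was thinned to 1500 UMIs. It was also -0.04 without the sub-clusters that came nearly all from 1 library or counted as another lineage. The latter had at least 3 enriched markers of another class and over 50% likely doublets.

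The macrophages were uneven in C1q. A Ctrl macrophage had a median of 16 C1q UMIs, with the lower quartile at 1 and the upper at 66, and a KD macrophage had a median of 24, with quartiles of 1 and 80. Macrophages of the KD library also had more UMIs, with a median of 7426 per cell against 5568.5 in Ctrl. With every cell thinned to 1500 UMIs (294 Ctrl and 114 KD macrophages were shallower and left out), 72.4% (71.0 to 73.8) of Ctrl and 72.4% (70.8 to 74.1) of KD macrophages had a UMI of any C1q chain. Without thinning the shares were 80.5% and 79.9%. In T cells, which are not known to make C1q, the thinned shares were 12.9% and 12.2% and the unthinned shares 40.7% and 35.5%, at median depths of 6587.5 and 5573.5 UMIs. A UMI of all 3 chains in the same cell was found in 50.4% of Ctrl and 49.4% of KD macrophages after thinning, and in 0.66% and 0.13% of T cells. C1q in T cells was therefore low against macrophages but not 0, and its level there is taken here as the background.

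The promoters of C1qb and C1qc are shown because these neighboring chains kept nearly the same pattern over the classes (Pearson r = 0.99 over 20 class by library points, which share libraries and depth). The sequences are from RefSeq on GRCm38.p6, a different build from the GRCm39 named for the counts, run 5′ to 3′ on the minus strand from 250 bases before the annotated start to 50 after it, and were found for 6 of the 8 genes. Capitals mark matches on either strand to the ETS core GGAAGT, the MAF half-site TGCTGA, a GAS element TTCNNNGAA, a C/EBP-like site TTGCNNAA, an ISRE-like site GAAANNGAA or a TATA box TATAAA.
C1qb, chr4:136886151-136886450: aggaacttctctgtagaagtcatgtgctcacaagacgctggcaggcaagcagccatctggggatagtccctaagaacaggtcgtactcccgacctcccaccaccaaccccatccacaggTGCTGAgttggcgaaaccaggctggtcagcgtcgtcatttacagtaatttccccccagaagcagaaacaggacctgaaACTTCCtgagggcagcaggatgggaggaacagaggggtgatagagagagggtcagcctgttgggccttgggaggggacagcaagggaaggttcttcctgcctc
C1qc, chr4:136892865-136893164: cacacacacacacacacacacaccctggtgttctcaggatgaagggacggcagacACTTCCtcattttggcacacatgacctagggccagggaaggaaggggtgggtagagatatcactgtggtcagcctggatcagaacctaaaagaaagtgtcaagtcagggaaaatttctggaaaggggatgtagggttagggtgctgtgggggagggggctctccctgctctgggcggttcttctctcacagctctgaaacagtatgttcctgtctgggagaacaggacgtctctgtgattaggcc
The C1qb window held an ETS core with its leftmost base 53 bases before the start and a MAF half-site 131 bases before it, and the C1qc window an ETS core 195 bases before it. These letters are common, since 23.8% of the 32851 mouse promoter windows held the ETS core and 19.5% the MAF half-site. Among the genes whose levels over the classes were most like those of the C1q chains, out of 8642 candidates, were Etv5, an ETS family factor, and Pla2g15 for C1qa (both r = 0.93), Kcnk13 (0.94) and Etv5 (0.93) for C1qb, and Pla2g15 (0.94) and Ms4a7 (0.93) for C1qc. Ms4a7 was also among the markers that named the macrophage class.

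**Figure D1:**
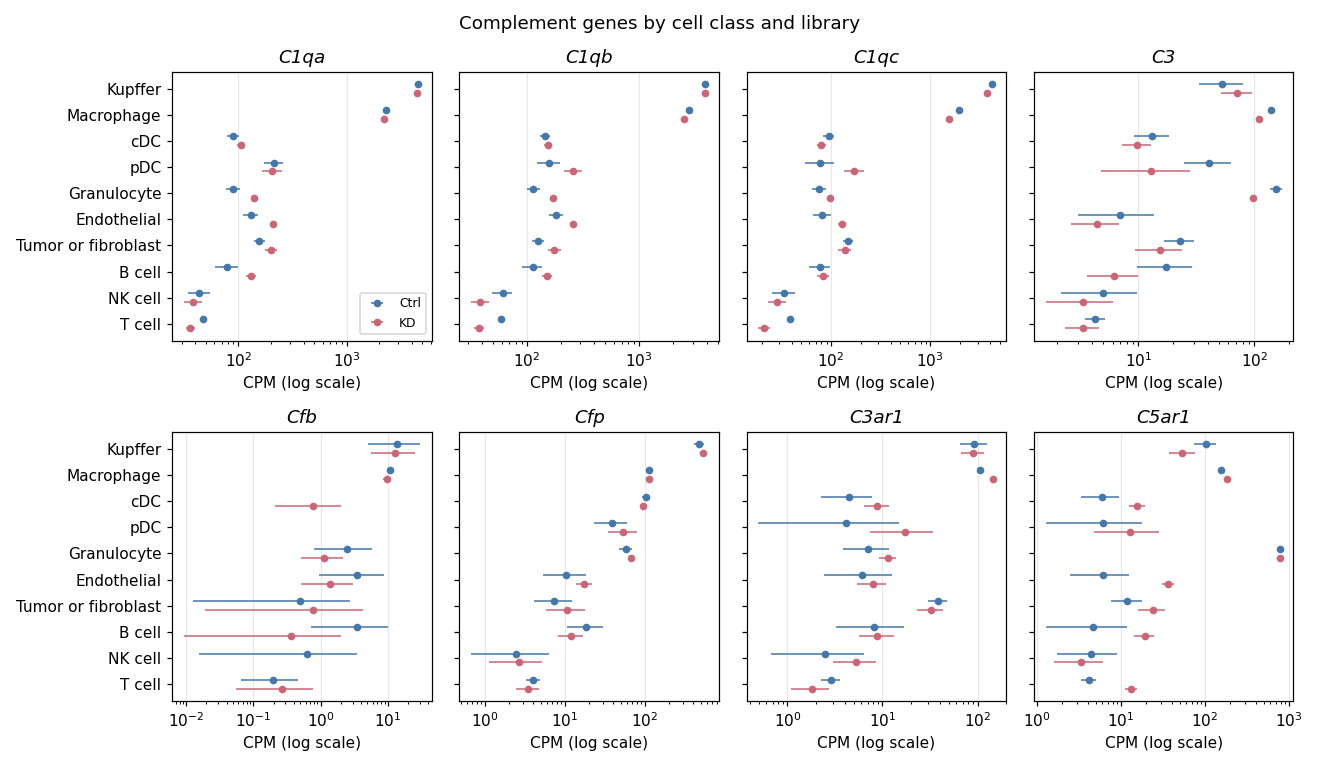
Level of each gene (CPM of the class, log scale) in 10 cell classes, with Ctrl in blue and KD in red; points are 1 library each, bars are exact 95% counting intervals, and values of 0 are not drawn. The C1q chains are highest in Kupffer cells and macrophages, C5ar1 in granulocytes (778 and 773 CPM) and Cfp in Kupffer cells (472 and 540 CPM).

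The balance of the 3 chains also differed between the libraries. C1qc made up 27.9% (27.7 to 28.1) of all C1q UMIs of Ctrl macrophages and 24.9% (24.7 to 25.1) of those of KD macrophages. C1qa made up 32.8% and 35.1%, and C1qb 39.3% and 39.9%. The share of C1qc was lower in KD in 7 of the 10 classes, in 5 of them beyond both intervals, with differences from -8.03 to 9.68 percentage points. Among them were Kupffer cells (33.5% and 30.8%), cDC (28.7% and 23.6%) and T cells (26.7% and 22.3%). Endothelial cells, NK cells and plasmacytoid dendritic cells (pDC) had the higher share in KD, with overlapping intervals. The classes of a library share its free RNA, so they are not separate observations of this difference.

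**Figure D2:**
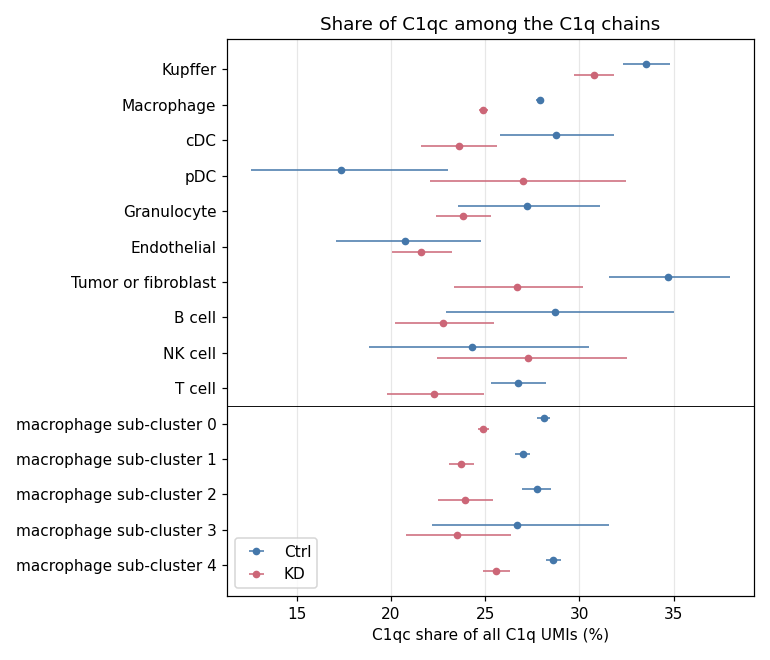
Share of C1qc among all C1q UMIs (percent) by class and by macrophage sub-cluster, with Ctrl in blue and KD in red and exact 95% binomial intervals as bars. The KD point lies to the left in macrophages (24.9% against 27.9%) and in each of the 5 sub-clusters shown.

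In 6 classes outside Kupffer cells and macrophages (B cells, endothelial cells, granulocytes, T cells, the tumor or fibroblast class and cDC) at least 1 C1q ratio that passed the counting error changed direction under another setting. In Kupffer cells the C1qa ratio of -0.03, which did not pass it, was 0.27 without the likely doublets. In granulocytes the summed C1q level was 279 CPM in Ctrl and 409 in KD, and in cDC 330 and 339 CPM, against 144 and 94.8 CPM in T cells. C1qa stood in granulocytes at 88.7 and 141 CPM, a log2 ratio of 0.67 (0.44 to 0.90), which turned to -0.94 without the likely doublets. In the tumor or fibroblast class, 29.2% of whose cells were likely doublets, C1qa had 156 and 201 CPM and a ratio of 0.37 that turned to -4.09 without them. B cells, with 77.9 and 132 CPM of C1qa, also changed sign, from 0.76 to -0.52.

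C3 was detected at similar levels in granulocytes and macrophages and was lower in the KD library in both. In macrophages C3 had 3621 UMIs in Ctrl and 2578 in KD, or 138 and 109 CPM, a log2 ratio of -0.34 (-0.41 to -0.27). In granulocytes it had 310 and 780 UMIs, or 154 and 98.6 CPM, a log2 ratio of -0.65 (-0.84 to -0.45). The Ctrl levels of the 2 classes overlapped within counting error, as did the KD levels. Kupffer cells came next with 53.2 and 71.6 CPM from 23 and 44 UMIs, whose intervals overlapped, and T cells had 4.25 and 3.31 CPM. After thinning, 17.6% (16.4 to 18.9) of Ctrl and 13.6% (12.4 to 14.9) of KD macrophages had a C3 UMI, against 0.85% and 0.32% of T cells. The unthinned shares were 42.1% and 40.4% in macrophages and 2.33% and 1.73% in T cells.

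In granulocytes the lower C3 level was seen in each of their clusters. The cluster led by G0s2, Hcar2 and Hdc had 144 CPM in Ctrl and 102 in KD, a ratio of -0.50 (-0.73 to -0.26). The cluster led by Ngp, Camp and Ltf, which are genes of immature neutrophil granules, had 198 and 99.1 CPM, with an interval of the log2 ratio from -1.45 to -0.52 and 43 Ctrl and 601 KD cells. A last cluster, with 194 and 73.0 CPM, was made up of likely doublets to 95.7%. The genes whose class pattern was most like that of C3 were the peroxiredoxin Prdx5 (r = 0.95 over 20 points), the transcription factor Cebpb (0.90) and the proton pump subunit Atp6v0c (0.89).

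Cfp was highest in Kupffer cells, with 472 CPM in Ctrl and 540.0 in KD, a log2 ratio of 0.19 (-0.06 to 0.45). Macrophages had 114 and 113 CPM, a ratio of -0.01 (-0.09 to 0.06), and cDC had 103 and 94.2 CPM, a ratio of -0.13 (-0.34 to 0.09). Granulocytes followed with 58.3 and 67.7 CPM, and T cells had 3.98 and 3.49 CPM. In none of these classes did Cfp differ between the libraries beyond counting error. After thinning, 13.9% of Ctrl and 13.6% of KD macrophages had a Cfp UMI, and 0.53% and 0.45% of T cells did. The unthinned shares were 38.9% and 45.9% in macrophages and 2.58% and 2.04% in T cells. Cd300c2 (r = 0.96), the cathepsin Ctss (0.94) and Cd300a (0.94), genes of myeloid cells, were most like Cfp over the classes.

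Cfb was scarce. Macrophages held 285 Ctrl and 231 KD UMIs of it, or 10.9 and 9.79 CPM, a log2 ratio of -0.15 (-0.41 to 0.10). Kupffer cells had 6 and 8 UMIs, or 13.9 and 13.0 CPM, and T cells 0.199 and 0.269 CPM. After thinning, 1.71% (1.32 to 2.17) of Ctrl and 1.49% (1.08 to 2.00) of KD macrophages had a Cfb UMI, against 0.10% and 0.13% of T cells. The unthinned shares were 6.22% and 7.1% in macrophages and 0.16% and 0.19% in T cells. In cDC and pDC of the Ctrl library Cfb had no UMI. Gm20547 overlaps Cfb on the same strand, and reads that fall in both may not be counted, so the Cfb level is uncertain. Gm20547 itself had 0 UMIs in the macrophages of either library. Among the genes most like Cfb over the classes were the collagenase Mmp13 (r = 0.88) and the interferon-inducible Gbp2b (0.86).

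The anaphylatoxin receptors had different cell types. Over all macrophages both were higher in KD, but C5ar1 did not keep that direction in every macrophage sub-cluster. C3ar1 was a gene of macrophages and Kupffer cells, whereas C5ar1 was highest in granulocytes. C3ar1 had 2803 UMIs in Ctrl and 3438 in KD macrophages, or 107 and 146 CPM, a log2 ratio of 0.44 (0.37 to 0.52). C5ar1 had 4085 and 4344 UMIs there, or 156 and 184 CPM, a ratio of 0.24 (0.18 to 0.30). After thinning, a C3ar1 UMI was found in 13.2% (12.2 to 14.3) of Ctrl and 18.6% (17.2 to 20.1) of KD macrophages, and in 0.33% and 0.45% of T cells. A C5ar1 UMI was found in 18.2% (16.95 to 19.4) and 21.0% (19.5 to 22.5) of macrophages and in 0.36% and 1.34% of T cells. Without thinning the C3ar1 shares were 37.0% and 51.9% in macrophages and 1.77% and 1.05% in T cells, and the C5ar1 shares 45.5% and 57.0% and 2.05% and 4.14%.

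The promoters of the receptors are shown to set a pattern led by macrophages beside one led by granulocytes. The same source, strand and capitals apply as for the C1q chains.
C3ar1, chr6:122856108-122856407: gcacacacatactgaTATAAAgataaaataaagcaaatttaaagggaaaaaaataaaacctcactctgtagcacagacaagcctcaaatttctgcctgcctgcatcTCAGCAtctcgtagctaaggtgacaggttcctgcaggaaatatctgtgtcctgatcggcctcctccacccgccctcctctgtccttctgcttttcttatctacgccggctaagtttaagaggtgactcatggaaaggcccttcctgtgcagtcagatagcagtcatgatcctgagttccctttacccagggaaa
C5ar1, chr7:16259289-16259588: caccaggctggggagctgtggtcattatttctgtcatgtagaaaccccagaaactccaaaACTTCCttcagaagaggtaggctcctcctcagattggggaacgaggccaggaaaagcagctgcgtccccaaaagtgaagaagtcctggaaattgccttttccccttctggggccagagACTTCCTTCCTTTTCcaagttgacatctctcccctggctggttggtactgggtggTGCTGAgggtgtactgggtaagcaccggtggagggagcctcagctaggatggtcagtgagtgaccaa
The C3ar1 window held a MAF half-site 144 bases before the start and TATAAA 235 bases before it. The C5ar1 window held ETS cores 190 and 72 bases before the start, an ISRE-like match 66 bases before it and a MAF half-site 17 bases before it. ISRE-like letters occurred in 8.56% of all windows and TATAAA in 13.6%. Such a match is a description of letters and not of a bound site. Over the classes C3ar1 was most like the integrin Itgb5 (r = 0.95), the scavenger receptor Lrp1 (0.93) and Gdf15 (0.93). C5ar1 was most like the endotoxin co-receptor Cd14 (0.96), the G-CSF receptor Csf3r (0.96) and the neutrophil chemokine Cxcl2 (0.94).

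In Kupffer cells C3ar1 had 92.5 CPM in Ctrl and 89.5 in KD from 40 and 55 UMIs, a log2 ratio of -0.05 (-0.66 to 0.58). C5ar1 had 102 and 53.7 CPM there from 44 and 33 UMIs, a ratio of -0.92 (-1.62 to -0.24), the opposite direction to macrophages. The tumor or fibroblast class came next in C3ar1 with 38.4 and 32.1 CPM. All other classes except macrophages had at most 17.2 CPM of C3ar1 in either library, and T cells had 2.86 and 1.79 CPM.

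C5ar1 in granulocytes had 1562 UMIs in Ctrl and 6116 in KD, or 778 and 773 CPM, a log2 ratio of -0.01 (-0.09 to 0.07). Within both larger granulocyte clusters C5ar1 was higher in KD. The cluster led by G0s2, Hcar2 and Hdc had 874 and 962 CPM, a ratio of 0.14 (0.05 to 0.23), and the cluster led by Ngp, Camp and Ltf had 409 and 589 CPM, a ratio of 0.52 (0.23 to 0.83). The latter, lower cluster held 43 of 805 Ctrl and 601 of 2315 KD granulocytes. In lymphocytes C5ar1 was low. NK cells had 4.35 CPM in Ctrl and 3.30 in KD from 7 and 10 UMIs, a ratio of -0.40 (-1.94 to 1.23), and B cells 4.65 and 19.0 CPM from 4 and 52 UMIs, a ratio of 2.03 (0.59 to 3.96). T cells had 4.10 CPM in Ctrl and 13.2 in KD, a ratio of 1.68 (1.31 to 2.06), or 0.86 without the likely doublets. The summed granulocyte markers in T cells stood at 110 CPM in Ctrl and 989.5 in KD, and their part in that difference was not tested.

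None of the 8 genes differed by 1.5-fold between the macrophages of the 2 libraries. Of the 10019 genes with at least 200 UMIs in macrophages, 11.6% differed by that much in either direction, and the median log2 ratio of all was -0.02. On a percentile scale of these ratios, C3ar1 stood at 92.7, C5ar1 at 82.7, C3 at 15.5 and C1qc at 16.01, with the other 4 genes between 32.4 and 51.4. In granulocytes 2 of the 6 genes with enough UMIs passed the limit, C1qa upwards and C3 downwards, while 29.8% of 4274 genes did so. The C1qa ratio turned to -0.94 without the likely doublets. In the granulocyte cluster led by G0s2, Hcar2 and Hdc it was -0.68 (-0.98 to -0.36). In cDC 0 of 4 passed against 6.81% of all genes, and in Kupffer cells 0 of 4 against 17.1%. The share of members was thus near or under that of all genes in each of these classes.

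The wider complement system was set against the same limit in macrophages. A list of 49 complement genes, chosen by function, held 18 with at least 200 UMIs there, with a median log2 ratio of -0.04. Of the 18, 3 passed 1.5-fold, all higher in KD and none of them among the 8 genes, while 11.6% of all genes did so. Among these, Fcna, encoding the lectin pathway recognition protein ficolin A, had 1.72 CPM in Ctrl and 11.8 in KD (2.78, 2.32 to 3.27). Fcna was itself highest in Kupffer cells. The summed Kupffer markers stood at 21.4 CPM in Ctrl and 53.9 in KD macrophages, and their part in the Fcna difference was not tested. Itgam, the alpha chain of complement receptor 3 (CD11b), had 172 and 311 CPM (0.85, 0.80 to 0.91), and its partner Itgb2 267 and 230 CPM (-0.21, -0.26 to -0.16). Of the 5 macrophage sub-clusters compared below, Itgam passed 1.5-fold in sub-clusters 3 and 4 alone. The receptor genes Itgax (76.7 and 65.1 CPM), Cd93 (68.3 and 90.1), Cr1l (32.6 and 40.6) and C5ar2 (5.20 and 6.91) stayed under the limit. So did C4b, encoding complement C4 (21.5 and 19.7 CPM), and the C1 protease gene C1ra (11.2 and 8.82 CPM). The 10 hepatocyte markers, all of them detected in Ctrl macrophages and all but Apoc3 in KD macrophages, summed to 67.3 CPM in Ctrl and 163 in KD macrophages, and their part was not tested.

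**Figure D3:**
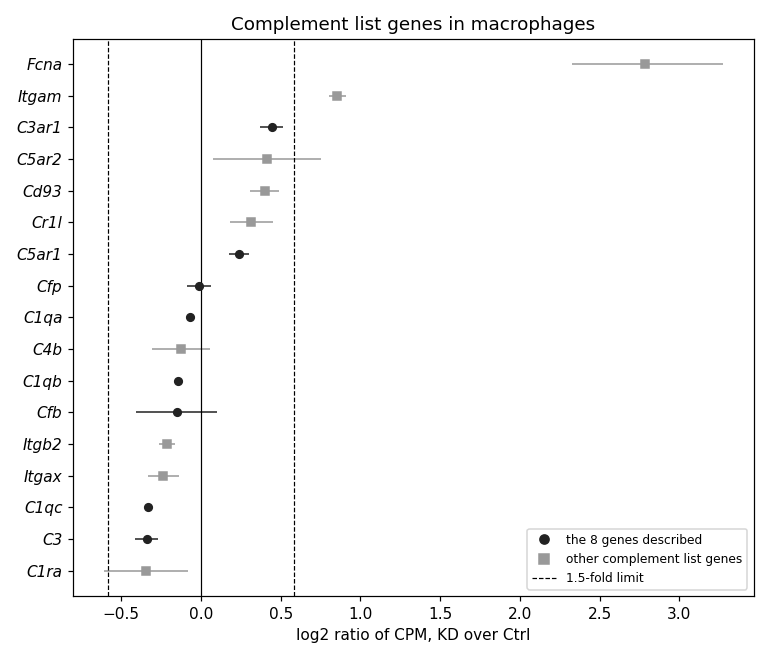
Log2 ratio of CPM (KD over Ctrl) in macrophages for complement list genes with at least 200 UMIs, with exact 95% counting intervals; black circles are the 8 genes described and gray squares the others, and dashed lines mark 1.5-fold. Fcna (2.78) and Itgam (0.85) lie past the limit, and all 8 black points lie inside it.

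Other complement genes had their highest level in other classes. In Kupffer cells Vsig4, a receptor for C3 fragments, had 948 and 1288 CPM (0.44, 0.27 to 0.62), Fcna 308 and 548 CPM (0.83, 0.54 to 1.13) and the terminal component gene C6 287 and 442 CPM (0.63, 0.31 to 0.94). C4b stood there at 160 and 140 CPM with overlapping intervals. Endothelial cells led in the regulator gene Cd55 (919 and 1199 CPM), in Cd93 (415 and 451), Masp1 of the lectin pathway (194 and 134), C5ar2 (138 and 123), Cd59a (111 and 131) and Cr1l (88.8 and 106). Granulocytes led in Itgam (208 and 302 CPM), and cDC in Itgax (115 and 122 CPM). B cells led in Cr2, encoding complement receptor 2 (143 and 114 CPM), and the tumor or fibroblast class in Clu, encoding clusterin (205 and 212 CPM). The remaining 24 list genes had under 200 UMIs in macrophages and in their highest class. They included Hc, encoding C5, the source of the C5ar1 ligand, with 66 UMIs in all filtered cells, Cfd with 1 and C8b with none.

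Clustering the macrophages alone, again without the complement genes, gave 10 sub-clusters, of which 5 had at least 50 cells in each library. Sub-cluster 0 was led by Mmp12, Ccl8 and Mgl2 (932 Ctrl and 1096 KD cells), sub-cluster 1 by Il1rn, Ly6i and Il1b (1252 and 324), sub-cluster 2 by 4933406J09Rik, Cadm1 and Psd3 (895 and 330), sub-cluster 3 by Lcn2, S100a8 and Chil3 (426 and 462), and sub-cluster 4 by H2ac24, Pclaf and H2ac8, genes of dividing cells (490 and 113). Sub-cluster 5, led by Ltc4s, Cxcl3 and Fabp7, held 14 Ctrl and 522 KD cells, and sub-cluster 8, led by Pf4, Ccl6 and Arg1, 1 and 50. A sub-cluster that comes from 1 library may reflect that library and not a cell type. In sub-cluster 3, 3 granulocyte and 3 macrophage markers were enriched over the other macrophages. With 3.38% likely doublets it did not count as another lineage and was kept in the comparisons.

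C1q separated the sub-clusters more than it separated the libraries. The summed chains stood at 10299 CPM in Ctrl and 9295 in KD in sub-cluster 0 and at 9486 and 9806 in sub-cluster 4. Sub-cluster 1 had 5749 and 6021 CPM and sub-cluster 2 had 4824 and 3868 CPM. In sub-cluster 3 the sum was 153 and 280 CPM, the lowest of the 5. In Ctrl this was near the 144 CPM of T cells, whereas in KD it was above the 94.8 CPM of T cells beyond counting error. Sub-cluster 5 had 3809 CPM in KD from 17485 UMIs. In all 5 sub-clusters compared the log2 ratio of C1qa was the highest of the 3 chains and that of C1qc the lowest. The ratios of C1qa and C1qc were -0.04 and -0.32 in sub-cluster 0, 0.18 and -0.12 in sub-cluster 1, -0.13 and -0.53 in sub-cluster 2 and 0.21 and -0.11 in sub-cluster 4. The C1qc share was lower in KD in 5 of 5 sub-clusters, by 3.03 to 3.79 percentage points, and beyond both intervals in 4.

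C3 differed little within the sub-clusters. It stood at 109 and 119 CPM in sub-cluster 0, 183 and 175 in sub-cluster 1, 144 and 140 in sub-cluster 2 and 90.3 and 102 in sub-cluster 4, each pair within counting error. In sub-cluster 3 it was 149 in Ctrl and 129 in KD, a log2 ratio of -0.21 that only just passed the counting error (-0.42 to -0.00). Sub-cluster 5 of the KD library had 39.9 CPM from 183 UMIs, lower than any of these. With sub-clusters weighted alike the C3 ratio over all macrophages went from -0.34 to -0.09, and without the sub-clusters of 1 library or another lineage it was -0.11.

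C3ar1 was higher in KD in each of the 5 sub-clusters. It stood at 138 CPM in Ctrl and 163 in KD in sub-cluster 0 (0.24, 0.13 to 0.36), 115 and 177 in sub-cluster 1 (0.63, 0.46 to 0.79) and 112 and 149 in sub-cluster 2 (0.41, 0.10 to 0.71). Sub-cluster 4 had 99.1 and 120 CPM (0.27, 0.01 to 0.53), and sub-cluster 3 had 10.2 and 26.1 CPM (1.36, 0.69 to 2.07) from 24 and 87 UMIs. The KD cells of sub-cluster 5 had the highest level, 190 CPM, whose interval overlapped that of the KD cells of sub-cluster 1. Over all macrophages the ratio of 0.44 became 0.47 with sub-clusters weighted alike and 0.33 without those of 1 library or another lineage.

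C5ar1 did not keep 1 direction. Its level was 159 and 156 CPM in sub-cluster 0 (-0.03, -0.14 to 0.09), 182 and 213 in sub-cluster 1 (0.23, 0.09 to 0.37), 148 and 167 in sub-cluster 2 (0.18, -0.11 to 0.46) and 138 and 116 in sub-cluster 4 (-0.25, -0.50 to 0.00). Sub-cluster 3 had 87.0 and 160.0 CPM (0.88, 0.64 to 1.12), and there the summed granulocyte markers also stood at 1055 CPM in Ctrl and 5235 in KD. C5ar1 is itself a granulocyte gene in these data, and the part of those markers was not tested. Over all macrophages the C5ar1 ratio of 0.24 became 0.08 with sub-clusters weighted alike.

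Cfp, level between the libraries over all macrophages, was not level within them. It was lower in KD in sub-cluster 0 (150 and 117 CPM, -0.36, -0.48 to -0.23), sub-cluster 1 (103 and 70.7 CPM, -0.54, -0.78 to -0.31) and sub-cluster 2 (93.5 and 57.3 CPM, -0.70, -1.18 to -0.26). Sub-cluster 4 had 134 and 130 CPM (-0.05, -0.29 to 0.19). Sub-cluster 3 went the other way with 28.8 and 65.0 CPM (1.17, 0.77 to 1.59). The log2 ratio over all macrophages moved from -0.01 to -0.34 with sub-clusters weighted alike. Sub-cluster 5 had 154 CPM and sub-cluster 8 363 CPM in KD. Cfb was too scarce for such a comparison, with 8 to 129 UMIs per library in the 5 sub-clusters and intervals that all included 0.

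Against 1.5-fold, 0 of the 7 genes with enough UMIs passed in sub-cluster 0, where 7.06% of all genes did. In sub-cluster 1 C3ar1 alone of 7 passed (7.24% of all genes), in sub-cluster 2 Cfp alone of 7 (11.7%), and in sub-cluster 4 none of 7 (8.48%). In sub-cluster 3, 5 of 6 passed, all higher in KD, namely C1qa, C1qb, C1qc, C5ar1 and Cfp, where 12.6% of all genes did. There the KD levels of C1qa, C1qb and C1qc (78.8, 136 and 65.9 CPM) were above those of KD T cells (36.0, 37.7 and 21.1 CPM) but far under those of the macrophage class.

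**Figure D4:**
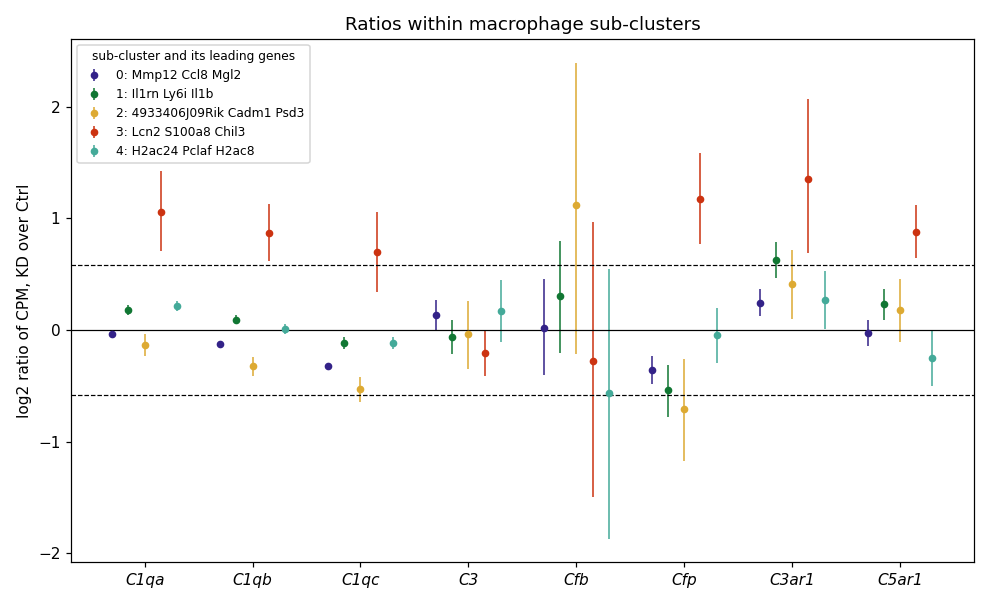
Log2 ratio of CPM (KD over Ctrl) of each gene within 5 macrophage sub-clusters, colored by sub-cluster, with exact 95% counting intervals and dashed lines at 1.5-fold. All 5 C3ar1 points lie above 0 (0.24 to 1.36), the C3 points lie between -0.21 and 0.17, and sub-cluster 3 stands apart in C1q, Cfp and C5ar1.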

How the data were processed

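The counts are UMI counts per gene and cell of the 2 libraries, made by the authors with Cell Ranger 7.1.0 and deposited as matrices of the barcodes called as cells, with GRCm39 as the genome build in the submitters' processing notes, which also name Seurat 5.1.0 and R 4.4.1. The annotation release is not given in the sources used here. Following the study's filters, 19999 of 21359 cells were kept. Removed were cells below 200 genes, above 6000 genes, above 30000 UMIs or above 10% of mitochondrial UMIs. The libraries held 67207234 (Ctrl) and 64444715 (KD) UMIs. Cells were clustered in Seurat 5.3.0 (2000 variable genes without the 49 complement list genes, 20 principal components, resolution 0.5), and clusters were named where at least 3 markers of a list were enriched. Scrublet in scanpy 1.11.5 called 3.19% of Ctrl and 4.28% of KD cells doublets, and the cells of highest score at 0.8% per 1000 cells, 868 and 958, were treated as likely doublets and kept in the main values.

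Counts were summed per class and library and divided by the class total (CPM). A level has an exact Poisson interval, a share an exact Clopper-Pearson interval and a log2 ratio an exact conditional binomial interval, computed with scipy 1.17.1 in Python 3.11.15 and plotted with matplotlib 3.10.9. With 1 library per group no test was run, and 50 cells in each library were the minimum for a comparison. Genes with at least 200 UMIs over both libraries in a class were set against a limit of 1.5-fold. Scaling by edgeR 4.0.16 TMM factors shifted macrophage log2 ratios by 0.05, and those of the tumor or fibroblast class by 0.11. The other alternatives were median-of-ratios scaling, resolution 1.0, a stricter cell filter, no likely doublets, thinning, sub-cluster weights and other limits. On macrophage sums of 10019 genes simulated with Poisson counting error alone, 200 of 200 changed genes had the right direction and 95.6% of intervals covered the true ratio. The intervals assume the same error, so this checks the calculation and says nothing of variation between cells, mice or libraries.

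The genes named are the 8 members, complement list genes with at least 200 UMIs in macrophages or in their highest class, the 3 genes of highest Pearson correlation with each member (log2 of CPM plus 1 over classes and libraries, genes with at least 1000 UMIs), the 3 leading genes of each sub-cluster, and markers. Some genes that this rule names are not reported here or drawn. Members and lists were chosen with earlier results of these data known.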

Additional observations from a re-analysis of the deposited data

Results flagged for a closer look

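These results were picked out because the KD library differed from the Ctrl library in opposite directions in 2 groups of cells, each beyond counting error. The difference between the directions was not tested, since each group was 1 library. C1qa had a log2 ratio of KD over Ctrl of -0.39 in T cells and 1.06 in macrophage sub-cluster 3, but the T cell ratio was 0.068 without the likely doublets, which ends the opposite direction. C1qb had -0.65 in the NK class, which also held T cell markers, and 0.87 in sub-cluster 3, and C1qc had -0.87 in T cells (-0.34 without the likely doublets) and 0.69 in sub-cluster 3. In T cells, NK cells and sub-cluster 3 the summed C1q chains were all at or under 280 CPM, against 7018 and 6248 CPM in the macrophage class. Cfp had -0.70 in sub-cluster 2 and 1.17 in sub-cluster 3, from 243 Ctrl and 49 KD UMIs in the former and 68 and 217 in the latter. In sub-cluster 2 the cells were shallow, with a median of 2355 UMIs.

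The unnamed cluster, used in no comparison, held C1q above the T cell background, with a summed level of 2093 CPM in Ctrl and 1704 in KD. The macrophage markers stood there at 4395 and 5680 CPM, the T cell markers at 3735 and 2790 CPM and the granulocyte markers at 3349 and 17114 CPM, and 99.7% of its cells were in the top doublet score class.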

How the results depend on the processing

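Over macrophages the direction of the C1q sum, C3, C3ar1 and C5ar1 held under the 9 alternatives run for each, while sizes moved. Within the 4 macrophage clusters the C1q sum did not keep that direction. It was higher in KD in those led by Cxcl9 (0.19, 0.18 to 0.20) and Vcan (2.51, 2.41 to 2.60). The Vcan cluster, with 359 Ctrl and 1118 KD cells, also had Pf4, Fn1 and Ltc4s among its leading genes. At resolution 1.0 a separate cluster led by Pf4, Fn1 and Ltc4s held 17 Ctrl and 574 KD cells. The part of such a mix of cells in the Vcan ratio was not tested. In the cluster led by Cadm1 the C1q sum was lower (-0.19, -0.24 to -0.14), and in the one led by H2ac8 it was level (0.02, -0.01 to 0.05). Cfb and Cfp, whose intervals included 0, changed sign, Cfb with sub-clusters weighted alike and Cfp with TMM (0.033) and median-of-ratios scaling (0.017). For C1qa alone the ratio of -0.07 became -0.02 with TMM scaling. The C1q sum of -0.17 became -0.12 with TMM scaling, -0.14 with median-of-ratios scaling, -0.19 with the stricter cell filter, -0.043 with cells thinned to 1500 UMIs, -0.093 with sub-clusters weighted alike and -0.036 without one-library and other-lineage sub-clusters, an alternative added after seeing the data. With sub-clusters weighted alike the ratio was -0.093 for C3, 0.083 for C5ar1, 0.28 for Cfb and -0.34 for Cfp. That weighting rests on as few as 1 Ctrl cell in sub-cluster 8 and 14 in sub-cluster 5. Under the added alternative it was -0.11 for C3, 0.33 for C3ar1, 0.066 for C5ar1 and -0.21 for Cfp, and thinning gave 0.53 for C3ar1.

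In 6 other classes ratios of single C1q chains that passed the counting error turned. Without likely doublets they were -0.52 (C1qa) and -0.73 (C1qb) in B cells, -0.11 (C1qb) and -0.23 (C1qc) in endothelial cells, -0.94, -0.85 and -1.14 (C1qa, C1qb, C1qc) in granulocytes, 0.068 (C1qa) in T cells, -4.09 (C1qa) and -2.46 (C1qb) in the tumor or fibroblast class and 0.062 (C1qc) in cDC. The stricter cell filter gave -0.23, -0.28 and -0.52 for C1qa, C1qb and C1qc in granulocytes. Resolution 1.0 gave -0.50 (C1qa) and -0.82 (C1qb) in B cells and -0.58 (C1qa) in cDC. The cause was not tested. In macrophages 20.3% of genes passed 1.5-fold with at least 20 UMIs and 3.42% passed a 2-fold limit, and of the complement list 12 and 1 did. No paired analysis was possible because each group was 1 library. Replicate error could not be measured and depth limits low counts such as those of Cfb. Classes were rebuilt here and may differ from those of the study.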
